A study of Mus musculus with 57 samples.

Results

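Kupffer cells are macrophages that live in the liver sinusoids. Their lineage draws on a group of transcription factors, some of which monocytes share. Described here across 57 mouse RNA-seq libraries are 8 genes for such factors. They are Id1, Id3, Spic, Zeb2, Maf, Rxra, Spi1 and Cebpb, 8 of the 24941 genes in the count table. They were picked by symbol, and each was read from its transcript with the most counts in all. Id1, Zeb2, Rxra, Spi1 and Cebpb, 5 of the 8, lie on mouse chromosome 2.

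Id1 and Id3 encode helix-loop-helix proteins without a DNA-binding region that hold E proteins off DNA. Both are known targets of BMP signalling through SMAD proteins, and Id3 is known for its part in Kupffer cell development. SPIC is an ETS factor related to PU.1 that is known for iron-recycling macrophages and is induced by haem. ZEB2 is a zinc-finger repressor that binds E-boxes and is known to maintain macrophage identity in several tissues. MAF is a bZIP factor of differentiated macrophages. RXRα, the product of Rxra, pairs with other nuclear receptors such as the LXRs, which sense sterols. PU.1, the product of Spi1, is an ETS factor needed throughout the myeloid lineage, and C/EBPβ, the product of Cebpb, is a bZIP factor of monocytes and inflamed macrophages.

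The 57 libraries form 16 groups in 4 sets, and each set was normalised and tested on its own. In the population set each of 6 groups had 2 libraries from C57BL/6J mice, and these groups were all on a NASH (non-alcoholic steatohepatitis) model diet except the healthy Kupffer cells. Ly6C-low recruited macrophages and Ly6C-high recruited macrophages were CD11b-high liver cells. Kupffer-niche recruited macrophages were F4/80-high and Tim4-negative, and NASH Kupffer cells and healthy Kupffer cells were F4/80-high and Tim4-positive. Ly6C-high monocytes were sorted from the blood. The weeks on the diet are not stated for these 6 groups. The time course held Tim4-positive Kupffer cells of C57BL/6J mice at week 0 on the control diet (n = 3), and after 1 week (n = 2), 4 weeks (n = 2), 10 weeks (n = 3), 20 weeks (n = 3) and 30 weeks (n = 4) on the NASH diet. The LXR set held Tim4-negative Kupffer-niche recruited macrophages after 20 weeks of the diet, from mice in which all animals carried floxed LXRa and LXRb genes, with a Clec4f-driven Cre (n = 3) or without Cre (n = 3). Clec4f is a gene of Kupffer cells, so Cre acts in cells that have taken on its expression. Whole liver came from mice labelled Clec4f-cre DTR positive (n = 12) or negative (n = 10) after 4 weeks of CDAHFD, a choline-deficient high-fat diet. DTR is a receptor for diphtheria toxin, and whether toxin was given is not stated in the labels.

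Promoter windows are shown for 4 factors that the results turn on: Id3 and Rxra, with large differences among the populations, Spic, which was lower late in the diet, and Cebpb, the factor called between the CD11b-high populations. Each runs from 250 bases before to 50 bases after the start of the transcript that was counted, 5′ to 3′ on the coding strand, from RefSeq on GRCm38.p6. Id3 lies at chr4:136143572-136143871 on the plus strand, Spic at chr10:88682974-88683273 on the minus strand, Rxra at chr2:27676951-27677250 on the plus strand and Cebpb at chr2:167688665-167688964 on the plus strand. Capitals mark the matches found on either strand to the motifs searched.
Id3: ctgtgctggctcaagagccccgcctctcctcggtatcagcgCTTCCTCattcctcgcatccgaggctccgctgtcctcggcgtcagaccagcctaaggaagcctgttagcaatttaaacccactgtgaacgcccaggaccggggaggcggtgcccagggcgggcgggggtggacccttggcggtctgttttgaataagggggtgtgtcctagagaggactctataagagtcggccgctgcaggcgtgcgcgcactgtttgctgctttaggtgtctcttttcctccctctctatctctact
Spic: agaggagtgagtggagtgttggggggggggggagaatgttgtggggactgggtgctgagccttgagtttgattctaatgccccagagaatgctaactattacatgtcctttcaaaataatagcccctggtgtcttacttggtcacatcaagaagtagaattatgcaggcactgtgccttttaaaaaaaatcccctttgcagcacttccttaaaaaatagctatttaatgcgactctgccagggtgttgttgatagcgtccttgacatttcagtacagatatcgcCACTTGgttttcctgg
Rxra: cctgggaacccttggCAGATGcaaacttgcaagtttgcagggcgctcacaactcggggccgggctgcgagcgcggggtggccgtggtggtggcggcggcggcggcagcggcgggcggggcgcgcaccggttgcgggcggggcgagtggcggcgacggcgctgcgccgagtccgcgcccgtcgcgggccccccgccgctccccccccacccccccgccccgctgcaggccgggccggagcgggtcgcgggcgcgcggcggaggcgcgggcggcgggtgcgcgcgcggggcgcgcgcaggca
Cebpb: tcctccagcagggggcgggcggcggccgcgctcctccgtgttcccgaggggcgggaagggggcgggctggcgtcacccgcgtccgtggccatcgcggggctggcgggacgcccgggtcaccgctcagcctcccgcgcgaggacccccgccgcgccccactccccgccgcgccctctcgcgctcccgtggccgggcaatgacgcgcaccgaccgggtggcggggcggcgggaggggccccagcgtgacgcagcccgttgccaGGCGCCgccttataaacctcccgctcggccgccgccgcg

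Windows were held for 5 of the 8 genes, and 6 short motifs were searched in them. The Id3 window held 1 match to the ETS motif GAGGAAG, printed as its reverse complement, starting at -209 with the transcript start at 0. GAGGAAG was in 13.6% of the 32851 windows of 300 bases in the table. The Spic and Rxra windows each held 1 E-box (CANNTG), at 34 and -235, a motif found in 72.3% of all windows. The Cebpb window held 1 copy of the SMAD motif GGCGCC at 11, which 11.9% of all windows held. The C/EBP motif TTGCNNAA (10.8% of windows), the AP-1 core TGANTCA (7.81%) and the receptor half-site AGGTCA (16.3%) had no match in these 4 windows. The fifth gene, Zeb2, had 1 GAGGAAG at -16 in the window of its counted transcript, at chr2:45113230-45113529 on the minus strand. The 4 windows shown differed in base composition, with G and C making up 83.0% of Rxra and 80.7% of Cebpb, against 60% of Id3, 45.0% of Spic and a median of 52.7% over all windows. A match here is a description of letters and says nothing of binding.

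Depth ran from 12368146 to 22707570 counts per library, over the transcripts kept, in the population set, 10483451 to 26969509 in the time course, 2319382 to 5086239 in the LXR set and 5389954 to 9941475 in whole liver. Every one of the 8 genes passed the filter on low counts in all 4 sets. Levels are CPM (counts scaled to library size, here by TMM within a set), so levels are compared only within a set, and levels of different genes only as the deposited TPM, which also divides by transcript length. Whether replicates came from different mice is not in the labels, so a p-value covers no more than the spread seen between these libraries, which may be technical. Groups said to overlap or to lie apart are described by their libraries only, and the share of all genes that lie apart was not counted. The sum of 10 Kupffer cell markers was 311 to 523 CPM in Ly6C-low recruited macrophages, 12969 to 15301 CPM in Kupffer-niche recruited macrophages, 23765 to 27195 CPM in NASH Kupffer cells, 32388 to 39228 CPM in healthy Kupffer cells, 299.9 to 415 CPM in Ly6C-high recruited macrophages and 6.59 to 9.62 CPM in blood monocytes, where Timd4 and Marco were at 0. The sum of hepatocyte markers was 1730.3 to 4715 CPM in Ly6C-high recruited macrophages and at most 1.14 CPM in blood monocytes. Timd4, the gene for the Tim4 of the gate, had 263 and 164 CPM in NASH Kupffer cells and 1007 and 759 CPM in healthy Kupffer cells, and 12.6 and 5.48 CPM in the Tim4-negative Kupffer-niche recruited macrophages.

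On the TPM scale Spi1 was the highest of the 8 genes in all 6 populations, with mean levels of 444 TPM in Ly6C-low recruited macrophages, 533 TPM in Kupffer-niche recruited macrophages, 535 TPM in NASH Kupffer cells, 613 TPM in healthy Kupffer cells, 533 TPM in Ly6C-high recruited macrophages and 541 TPM in blood monocytes. The genes below it changed places. Cebpb was second in blood monocytes at 483 TPM, where Id3 had 9.34 TPM and Spic 4.69 TPM. In Kupffer-niche recruited macrophages Id3 had 287 TPM, Cebpb 234 TPM, Maf 176 TPM, Rxra 151 TPM, Zeb2 66.1 TPM, Id1 45.3 TPM and Spic 25.2 TPM. Spic was thus the gene with the lowest level on this scale in both groups, although it was among the factors with the largest differences between groups.

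**Figure D1:**
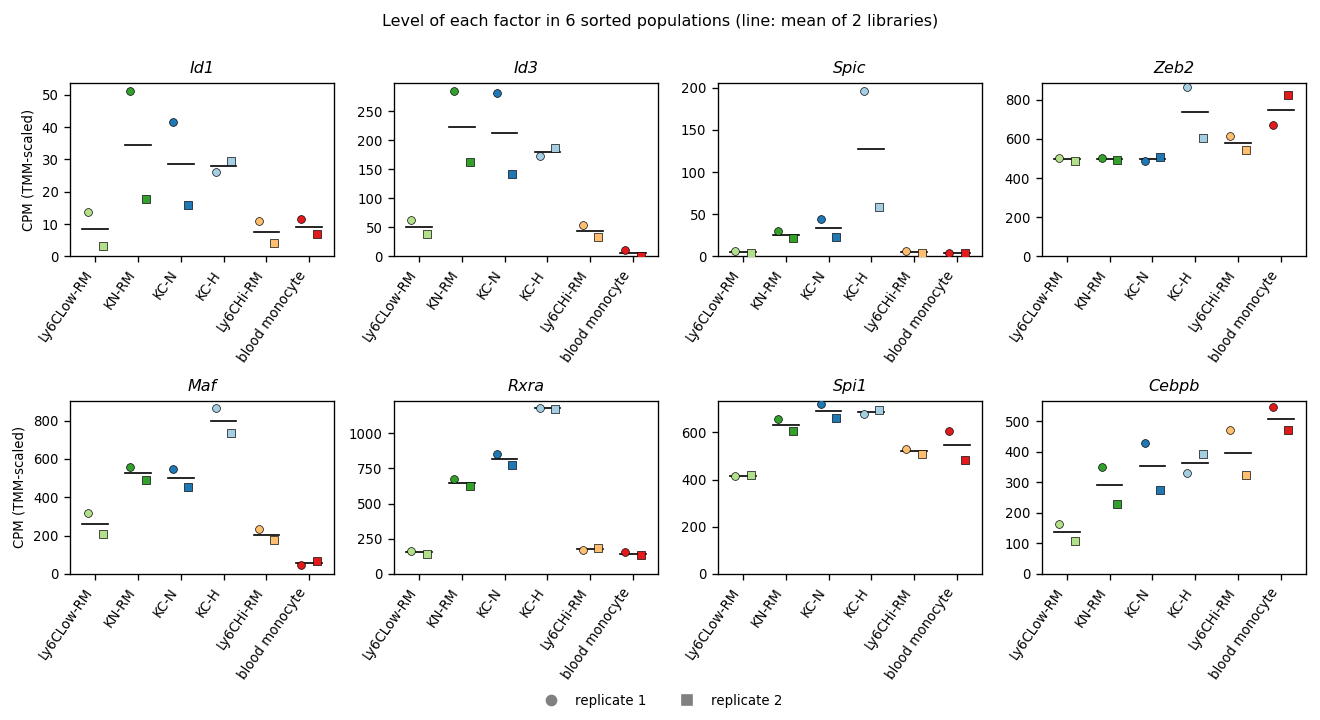
Normalised level of each of the 8 factors in the 6 populations, in CPM on an axis that starts at 0 in each panel, with 1 point per library (n = 2) and a line at the mean (KN-RM and RM, Kupffer-niche and other recruited macrophages; KC-N and KC-H, NASH and healthy Kupffer cells). Id1, Id3, Spic, Maf and Rxra sit higher in the Kupffer-niche recruited macrophages and both Kupffer cell groups than in blood monocytes, while Zeb2, Spi1 and Cebpb vary less.

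The inhibitors of E proteins, Id1 and Id3, had their 3 highest groups in the Kupffer niche. Id3 had 62.6 and 38.6 CPM in Ly6C-low recruited macrophages, 284 and 162 CPM in Kupffer-niche recruited macrophages, 281 and 142 CPM in NASH Kupffer cells, 173 and 187 CPM in healthy Kupffer cells, 54.9 and 32.8 CPM in Ly6C-high recruited macrophages and 11.8 and 0.57 CPM in blood monocytes. Its 3 niche groups overlapped one another and lay above the other 3, the recruited CD11b-high groups overlapped, and blood lay below all. Id1 had 13.7 and 3.17 CPM in Ly6C-low recruited macrophages, 51.1 and 17.7 CPM in Kupffer-niche recruited macrophages, 41.4 and 15.9 CPM in NASH Kupffer cells, 26.2 and 29.5 CPM in healthy Kupffer cells, 11.1 and 4.25 CPM in Ly6C-high recruited macrophages and 11.5 and 6.84 CPM in blood monocytes. Again the 3 niche groups lay above the other 3, which overlapped one another. The 2 libraries of a group stood far apart for both genes, and the higher library was the same one for Id1 and Id3 in 6 of the 6 populations and in 12 of all 16 groups. A shared order was not particular to these genes. Replicate 1 was also the higher one in 5 of the 6 populations for Spic, Maf, Rxra and Cebpb, and in 4 for Zeb2 and Spi1. For Id1 and Id3 it was the higher one in 5 of the 6 populations, all but healthy Kupffer cells. The hepatocyte marker sum was lower in replicate 1 of these 5, with 108 and 467 CPM in Kupffer-niche recruited macrophages and 161 and 510.4 CPM in NASH Kupffer cells as examples, and also in replicate 1 of healthy Kupffer cells, at 709 and 1090.4 CPM. The part of such RNA in the spread of Id1 and Id3 was not tested.

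Spic, the haem-induced ETS factor, was high in healthy Kupffer cells and low outside the niche. It had 6.502 and 4.25 CPM in Ly6C-low recruited macrophages, 30.5 and 21.4 CPM in Kupffer-niche recruited macrophages, 44.2 and 23.3 CPM in NASH Kupffer cells, 196 and 58.5 CPM in healthy Kupffer cells, 6.01 and 3.85 CPM in Ly6C-high recruited macrophages and 3.56 and 4.64 CPM in blood monocytes. The healthy group lay above the rest without overlap, NASH Kupffer cells and Kupffer-niche recruited macrophages overlapped, and the other 3 groups overlapped between 3.56 and 6.502 CPM.

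Rxra, the shared partner of the LXR and PPAR receptors, differed among the populations by more than its replicates did. It had 165 and 142 CPM in Ly6C-low recruited macrophages, 674 and 623 CPM in Kupffer-niche recruited macrophages, 849.8 and 778 CPM in NASH Kupffer cells, 1180.1 and 1176 CPM in healthy Kupffer cells, 169.6 and 186 CPM in Ly6C-high recruited macrophages and 155 and 131 CPM in blood monocytes. Every neighbouring pair in this order was apart except Ly6C-low recruited macrophages and blood monocytes. Maf, the bZIP factor of differentiated macrophages, had 316 and 206 CPM in Ly6C-low recruited macrophages, 559 and 492 CPM in Kupffer-niche recruited macrophages, 548 and 456 CPM in NASH Kupffer cells, 864 and 736 CPM in healthy Kupffer cells, 234 and 175 CPM in Ly6C-high recruited macrophages and 47.7 and 67.7 CPM in blood monocytes. Healthy Kupffer cells lay above and blood below all others, the Kupffer-niche and NASH Kupffer cell groups overlapped each other, and so did the CD11b-high groups between blood and the niche.

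The repressor Zeb2 and the broad myeloid factors Spi1 and Cebpb each had at least 109 CPM in every library of the populations. On the TPM scale the mean level of Zeb2 ran from 60.2 TPM in NASH Kupffer cells to 117 TPM in blood monocytes. Zeb2 had 504 and 487 CPM in Ly6C-low recruited macrophages, 503 and 493.2 CPM in Kupffer-niche recruited macrophages, 486 and 506 CPM in NASH Kupffer cells, 865 and 605 CPM in healthy Kupffer cells, 616 and 542 CPM in Ly6C-high recruited macrophages and 669 and 825 CPM in blood monocytes. Blood monocytes and healthy Kupffer cells overlapped at the top for Zeb2, and the 3 lowest groups, Kupffer-niche and Ly6C-low recruited macrophages and NASH Kupffer cells, overlapped at the bottom. Spi1 had 413 and 419.6 CPM in Ly6C-low recruited macrophages, 656 and 605 CPM in Kupffer-niche recruited macrophages, 719.6 and 660.2 CPM in NASH Kupffer cells, 676 and 693 CPM in healthy Kupffer cells, 531 and 507 CPM in Ly6C-high recruited macrophages and 605 and 484 CPM in blood monocytes. Ly6C-low recruited macrophages stood below all other groups for Spi1. Cebpb had 162 and 109 CPM in Ly6C-low recruited macrophages, 351 and 228 CPM in Kupffer-niche recruited macrophages, 430.1 and 275 CPM in NASH Kupffer cells, 329.9 and 393 CPM in healthy Kupffer cells, 471 and 323 CPM in Ly6C-high recruited macrophages and 546 and 472 CPM in blood monocytes. Blood was highest and Ly6C-low recruited macrophages lowest, both apart from their neighbours in the order.

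NASH Kupffer cells were set against healthy Kupffer cells to see what the diet changed within the resident gate. Spic, Rxra and Zeb2, 3 of the 8 factors, were lower in NASH Kupffer cells, and 20.7% of all genes tested were called in either direction. Spic was 3.78-fold lower (log2 fold change -1.92 ± 0.48 (SE), edgeR adjusted p = 0.019), Rxra 1.45-fold lower (log2 fold change -0.53 ± 0.13 (SE), edgeR adjusted p = 0.0145) and Zeb2 1.48-fold lower (log2 fold change -0.57 ± 0.17 (SE), edgeR adjusted p = 0.0336). Both NASH libraries lay below both healthy ones for each of these 3 genes, a pattern whose share over all genes was not counted. Maf lay below in both libraries as well but missed the threshold (log2 fold change -0.67 ± 0.23, edgeR adjusted p = 0.0575), and DESeq2 called it (adjusted p = 0.0149). Id1, Id3, Spi1 and Cebpb had log2 fold changes between -0.04 and 0.23 with adjusted p of at least 0.825. The calls rest on few libraries: without healthy replicate 2 the log2 fold change of Spic was -2.54, and without healthy replicate 1 it was -0.79 (adjusted p = 0.196) and that of Zeb2 -0.28 (0.225). Without NASH replicate 2 the adjusted p was 0.148 for Spic and 0.104 for Rxra, and Zeb2 was also lost without either NASH library.

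The healthy library with the most Spic was also the one with the most Rxra, Maf and Zeb2, and with the most Hmox1, the haem-degrading enzyme. Hmox1 had 1189 and 996 CPM in NASH Kupffer cells and 4491 and 1835 CPM in healthy Kupffer cells, so that replicate 1 exceeded replicate 2 of the healthy group by 2.45-fold for Hmox1 and 3.35-fold for Spic. In NASH Kupffer cells the higher library exceeded the lower by 1.19-fold for Hmox1 and 1.89-fold for Spic. A link between the 2 genes was not tested. Hmox1, Slc40a1 (the iron exporter ferroportin) and Slc48a1 (a haem transporter), 3 of 6 haem response genes, were lower in NASH Kupffer cells and 0 were higher, with a list median log2 fold change of -0.70 against -0.000361 over all genes. Hmox1 had a log2 fold change of -1.53 ± 0.31 (adjusted p = 0.00642). Of the 14 receptors and SMADs of BMP and TGF-beta signalling, the pathway upstream of Id1 and Id3, 1 was higher and 3 were lower. The BMP receptor gene Bmpr1a had 3.42 and 4.41 CPM in NASH Kupffer cells and 37.7 and 42.00 CPM in healthy Kupffer cells (log2 fold change -3.34 ± 0.32, edgeR adjusted p = 6.22e-05), while the TGF-beta receptor gene Tgfbr1 was higher (1.30 ± 0.16, 0.000414). Id1 and Id3 did not pass the test in the same libraries, and a link between them and these pathway genes was not tested. Of the other lists, 2 of 6 relatives and partners of ID and ZEB proteins were lower, Zeb1 most (-0.77 ± 0.18, adjusted p = 0.0142), and 0 higher. Of 11 genes of the RXR family and its dimer partners 2 were higher, with the vitamin D receptor Vdr at 1.33, and 3 lower, with Nr4a1 at -1.26. Of 12 PU.1 relatives and partners 4 were higher, with Runx3 at 2.80, and 1, Ets2, was lower at -1.73. Of 11 MAF and C/EBP relatives 3 were higher, with Ddit3 at 1.25, and 0 lower, and of 9 Notch pathway genes 2 were higher, with the ligand Jag1 at 2.54, and 0 lower. Markers of other cells moved too: 5 of 10 Kupffer cell markers and 8 of 12 sinusoidal endothelial markers were lower in NASH Kupffer cells, and the endothelial sum was 847 and 835 CPM there against 1319.99 and 1329.99 CPM in healthy Kupffer cells. Their part in the changes of the 8 factors was not tested.

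Kupffer-niche recruited macrophages and NASH Kupffer cells share the niche but differ in Tim4. None of the 8 factors was called between them by edgeR or DESeq2, and edgeR called 0.534% of all genes. At an unadjusted p under 0.05 were 1 of the 8 factors and 1311 of all 14407 genes. The 1 factor was Rxra, with 674 and 623 CPM in Kupffer-niche recruited macrophages and 849.8 and 778 CPM in NASH Kupffer cells (log2 fold change -0.33 ± 0.13, edgeR adjusted p = 0.441), groups that did not overlap. The log2 fold changes of the other 7 lay between -0.37 for Spic and 0.27 for Id1. Among the partner genes, Runx3 (1.77 ± 0.17, adjusted p = 0.000953) and Runx2 (1.04) of the PU.1 list, and the Notch effector Rbpj (0.79), were higher in Kupffer-niche recruited macrophages, and no other gene of the 7 partner lists passed.

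Against blood monocytes, Kupffer-niche recruited macrophages differed in 7 of the 8 factors, and 60.4% of all genes were called. Id3 (33.2-fold higher), Maf (9.13-fold higher), Spic (6.43-fold higher), Rxra (4.54-fold higher) and Id1 (3.72-fold higher) were higher, and Cebpb (1.76-fold lower) and Zeb2 (1.4997-fold lower) were lower. The log2 fold change was 5.05 ± 0.77 for Id3 (edgeR adjusted p = 0.00018), 3.19 ± 0.25 for Maf (9.49e-07), 2.68 ± 0.55 for Spic (0.00149), 2.18 ± 0.13 for Rxra (1.34e-07) and 1.89 ± 0.70 for Id1 (0.0346). Spi1 did not pass (0.21 ± 0.12, 0.161). Its log2 fold change ran from 0.06 to 0.38 with 1 library left out, and whether Spi1 passed depended on which library that was. The size of the Id3 difference rests on the blood libraries, which stood far apart: its log2 fold change was 8.59 without blood replicate 1 and 4.24 without blood replicate 2. The calls of Id3, Maf, Spic and Rxra held whichever library was left out, and the other 3 each depended on single libraries. Id1 was lost without Kupffer-niche replicate 1 (0.96, adjusted p = 0.305) and without either blood library. Cebpb was lost without either blood library or Kupffer-niche replicate 2, and Zeb2 without blood replicate 2 or either Kupffer-niche library. All 6 haem response genes were higher in Kupffer-niche recruited macrophages, Slc40a1 most, with 1429 and 1647 CPM there and 0.664 and 1.14 CPM in blood monocytes. Of the RXR family and its dimer partners, 5 of 11 were higher and 4 lower, and 9 of 14 BMP and TGF-beta pathway genes were higher and 3 lower. The inhibitory SMAD gene Smad6 had 71.9 ± 2.96 CPM in Kupffer-niche recruited macrophages and 4.57 ± 2.32 CPM in blood monocytes (mean ± SD, n = 2), and the LXRα gene Nr1h3, whose product pairs with RXRα, had 591 ± 103 CPM in Kupffer-niche recruited macrophages and 17.6 ± 2.61 CPM in blood monocytes. Of PU.1 relatives and partners 3 of 12 were higher, with Etv5 at 6.12, and 5 lower, with Irf4 at -3.19. Notch pathway genes were higher in 4 of 9, the target Hey1 most, with 51.8 ± 4.09 CPM in Kupffer-niche recruited macrophages and 0.122 ± 0.173 CPM in blood monocytes, and lower in 4, with Notch2 at -2.06. The hepatocyte marker sum was 108 and 467 CPM in Kupffer-niche recruited macrophages and 0.806 and 1.14 CPM in blood monocytes. The sinusoidal endothelial sum was 542 to 588 CPM in Kupffer-niche recruited macrophages and 12.9 to 17.2 CPM in blood monocytes. The part of such RNA in these differences was not tested.

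Ly6C-low recruited macrophages, on the other hand, had less of 7 of the 8 factors than Kupffer-niche recruited macrophages, with 33.3% of all genes called. The differences were -2.25 ± 0.52 for Spic (4.75-fold lower, edgeR adjusted p = 0.00702), -2.13 ± 0.65 for Id3 (0.0265), -2.07 ± 0.13 for Rxra (1.44e-06), -1.996 ± 0.69 for Id1 (0.0454), -1.09 ± 0.28 for Cebpb (0.012), -1.01 ± 0.23 for Maf (0.00609) and -0.60 ± 0.12 for Spi1 (0.00375), all log2 fold changes with SE. Zeb2 differed by -0.01 ± 0.16 and was not called (0.978). Rxra and Spi1 kept their calls whichever library was left out. Spic and Maf were lost without Ly6C-low replicate 2 (adjusted p = 0.0546 and 0.0542), Cebpb and Id1 without that library or Kupffer-niche replicate 1, and Id3 without Kupffer-niche replicate 1 or either Ly6C-low library. The Id1 log2 fold change was -3.44 without Ly6C-low replicate 1 and -1.01 without Kupffer-niche replicate 1. Id1 and Id3 were also not called by DESeq2. In the same comparison 5 of 6 haem response genes were lower and 0 higher, with a median of -1.70 against -0.01 over all genes, and Hmox1 had 139.7 and 132 CPM in Ly6C-low and 603 and 596 CPM in Kupffer-niche recruited macrophages. The MAF and C/EBP relatives were lower in 7 of 11 and higher in 1. PU.1 relatives and partners went both ways, with 5 of 12 higher, Irf4 most (2.42 ± 0.25, adjusted p = 4.36e-05), and 2 lower. Of 11 genes of the RXR family and its dimer partners, Nr1h3 was the 1 that was lower (-1.47 ± 0.19, 0.000211), and 5 were higher. Hey1 was the 1 Notch pathway gene of 9 that was lower (-4.03 ± 0.31, 4.91e-06), and 4 were higher. Of dendritic cell markers, 6 of 8 were higher and 1 lower in Ly6C-low recruited macrophages, and their part in the lower levels of the 7 factors was not tested. In sorted populations, a smaller share of cells that express a gene and less RNA of it per cell cannot be told apart.

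Entry of Ly6C-high cells into the liver was addressed by Ly6C-high recruited macrophages against blood monocytes. Id3 (6.52-fold higher, log2 fold change 2.71 ± 0.72 (SE), edgeR adjusted p = 0.00934) and Maf (3.56-fold higher, log2 fold change 1.83 ± 0.24 (SE), edgeR adjusted p = 0.000111) were higher in the liver cells, 2 of the 8 factors, with 48.6% of all genes called. Without Ly6C-high recruited replicate 1 the Id3 call was lost (2.28, adjusted p = 0.0517). The Id3 log2 fold change was 6.24 without blood replicate 1 and 1.89 without blood replicate 2. Rxra did not pass (0.32 ± 0.13, 0.0593), although DESeq2 called it (adjusted p = 0.00462). Id1, Spic, Zeb2, Spi1 and Cebpb did not pass either, and Spic had 6.01 and 3.85 CPM in Ly6C-high recruited macrophages against 3.56 and 4.64 CPM in blood monocytes. Marker sums of other liver cells differed as well. The sinusoidal endothelial sum was 1077 to 1143.5 CPM in Ly6C-high recruited macrophages and 12.9 to 17.2 CPM in blood monocytes. For stellate cell markers it was 671 to 820 CPM and 13.7 to 15.5 CPM, and the hepatocyte sums are given above. The part of such RNA in the higher Id3 and Maf was not tested. The comparisons of Kupffer-niche and of Ly6C-high recruited macrophages share the blood libraries, and side by side their log2 fold changes were 5.05 and 2.71 for Id3, 3.19 and 1.83 for Maf, 2.18 and 0.32 for Rxra and 2.68 and 0.28 for Spic. Between the CD11b-high groups, only Cebpb was called, being 2.93-fold lower in Ly6C-low than in Ly6C-high recruited macrophages (log2 fold change -1.55 ± 0.28 (SE), edgeR adjusted p = 0.00293), and 25.7% of all genes were called. DESeq2 called Spi1 as well, with a log2 fold change of -0.32 ± 0.12 and an edgeR adjusted p of 0.0834. Of the MAF and C/EBP relatives, 4 of 11 were lower and 0 higher, with Cebpd, a close relative of Cebpb, at -1.43 ± 0.27 (adjusted p = 0.00318). The hepatocyte sum there was 181 and 443 CPM in Ly6C-low against 1730.3 and 4715 CPM in Ly6C-high recruited macrophages, and 11 of 11 tested hepatocyte markers were lower. Hepatocytes also express Cebpb, and the part of their RNA in this difference was not tested.

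**Figure D2:**
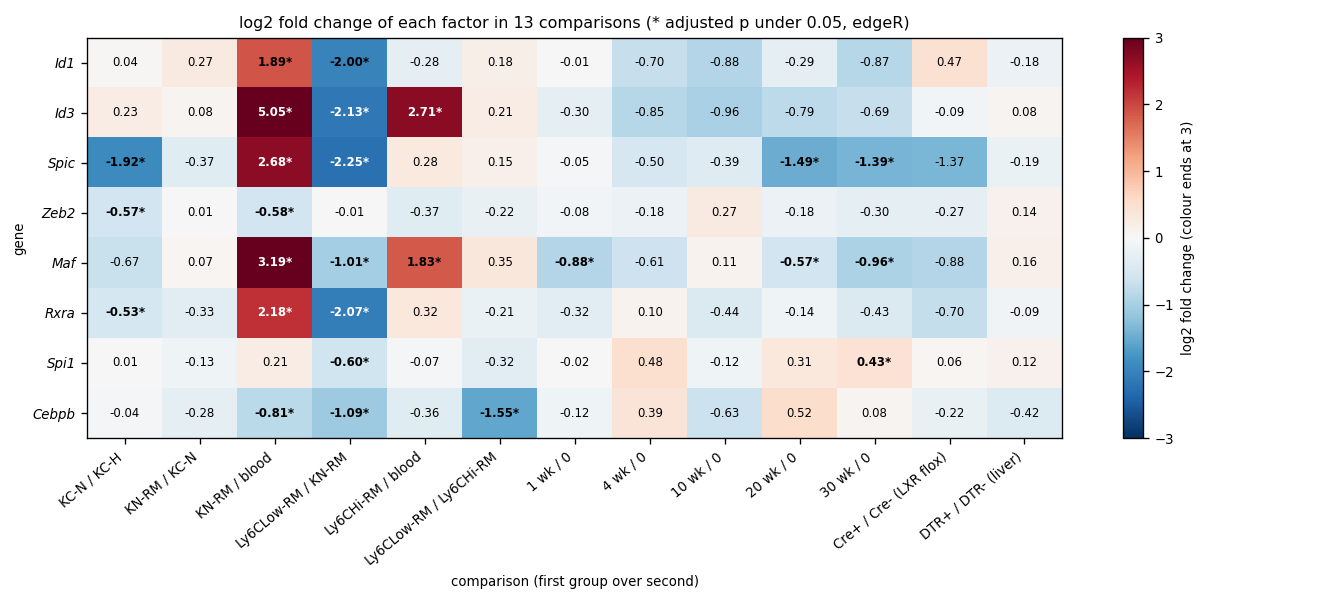
Log2 fold change of the 8 factors (rows) in the 13 comparisons (columns, first-named group over the second), printed in each cell and coloured blue for lower and red for higher, with an asterisk where edgeR's adjusted p was under 0.05. The columns for Kupffer-niche recruited macrophages over blood and for Ly6C-low over Kupffer-niche recruited macrophages hold 7 asterisks each, and the last 2 columns, LXR and whole liver, hold none.

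Over the weeks of diet, Spic and Maf were the factors that fell in Tim4-positive Kupffer cells, and Spi1 rose at the last time. The 5 comparisons with week 0 share its 3 libraries. Spic had 89.1, 107 and 73.2 CPM before the diet, 93.4 and 79.8 CPM at 1 week, 57.8 and 69.7 CPM at 4 weeks, 66.6, 69.6 and 69.5 CPM at 10 weeks, 35.4, 30.7 and 29.997 CPM at 20 weeks and 37.1, 31.4, 35.1 and 33.8 CPM at 30 weeks. The lowest library of weeks 0 to 10 had 57.8 CPM, and the highest of the 7 libraries of 20 and 30 weeks had 37.1 CPM. Spic was 2.81-fold lower at 20 weeks (log2 fold change -1.49 ± 0.14 (SE), edgeR adjusted p = 1.61e-06) and 2.61-fold lower at 30 weeks (log2 fold change -1.39 ± 0.13 (SE), edgeR adjusted p = 1.02e-06), and both calls held under every alternative run. At 4 and 10 weeks the log2 fold changes were -0.50 ± 0.15 (adjusted p = 0.0552) and -0.39 ± 0.13 (0.0522), short of the threshold. Hmox1, Slc40a1 and Slc48a1 were the 3 haem response genes lower at 20 and at 30 weeks, with Slc40a1 at -1.09 ± 0.22 (0.00139) and -1.49 ± 0.20 (5.26e-05), while Fth1, a ferritin chain, was higher at 1.20 and 1.12.

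**Figure D3:**
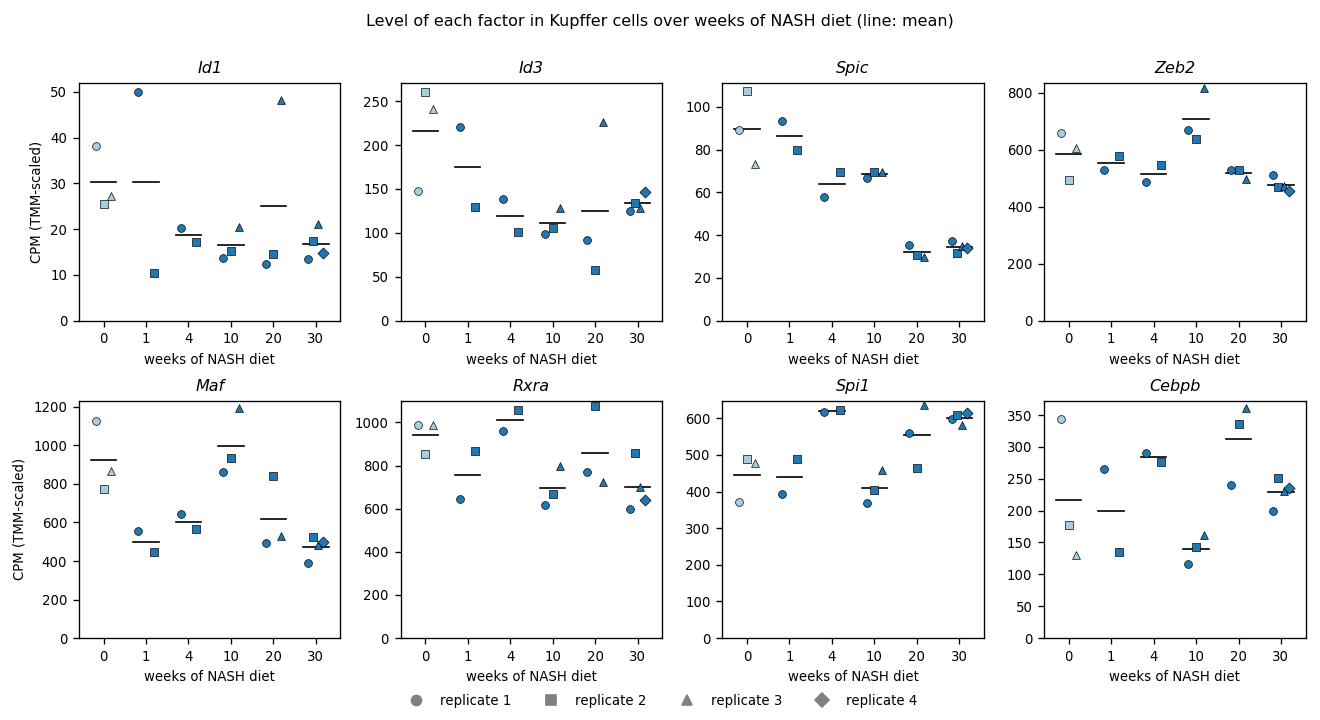
Normalised level in CPM of each of the 8 factors in Tim4-positive Kupffer cells by weeks of NASH diet (0 to 30, in order), with 1 point per library (2 to 4 per time) (the shape gives the replicate) and a line at each mean. Spic drops between 10 and 20 weeks, Maf lies below week 0 at 1, 4 and 30 weeks and overlaps it at 10 and 20 weeks, and Id1 and Id3 spread widely at 20 weeks.

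Maf did not fall steadily. It had 1129, 772 and 867 CPM before the diet, 554 and 447 CPM at 1 week, 642 and 565 CPM at 4 weeks, 861, 933 and 1193 CPM at 10 weeks, 492.7, 841 and 528 CPM at 20 weeks and 392, 527, 484 and 496 CPM at 30 weeks. Maf was lower at 1 week (1.84-fold lower, log2 fold change -0.88 ± 0.23 (SE), edgeR adjusted p = 0.0161), at 20 weeks (1.49-fold lower, log2 fold change -0.57 ± 0.20 (SE), edgeR adjusted p = 0.0374) and at 30 weeks (1.94-fold lower, log2 fold change -0.96 ± 0.19 (SE), edgeR adjusted p = 0.00115), and not at 4 weeks (-0.61 ± 0.23, 0.113) or 10 weeks (0.11 ± 0.20, 0.745). The 10-week and 20-week libraries overlapped week 0, and those of 1, 4 and 30 weeks all lay below it. The 30-week call held whichever library was left out. The 1-week call was lost without week 0 replicate 1 (adjusted p = 0.0563) or 1-week replicate 2 (0.137), and the 20-week call without week 0 replicate 1 (-0.40, 0.157), week 0 replicate 3, or 20-week replicate 1 or 3. The hepatocyte marker sum was 47.98 to 161 CPM at week 0, 3673 to 6138 CPM at 1 week, 2015 to 2245 CPM at 4 weeks, 673 to 3313 CPM at 10 weeks, 173 to 967 CPM at 20 weeks and 292 to 1025 CPM at 30 weeks, and its part in the changes of Maf was not tested.

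Spi1 had 372, 488 and 479 CPM before the diet, 394 and 488 CPM at 1 week, 618 and 623 CPM at 4 weeks, 368, 403 and 457 CPM at 10 weeks, 561, 463 and 635 CPM at 20 weeks and 597, 608, 582 and 614 CPM at 30 weeks. It was 1.35-fold higher at 30 weeks (log2 fold change 0.43 ± 0.13 (SE), edgeR adjusted p = 0.0197), a call lost without week 0 replicate 1 (0.31, 0.0983). All libraries of 4 and 30 weeks lay above all of week 0, while those of 10 weeks did not, and the 4-week difference missed the threshold (0.48 ± 0.15, 0.0648). Rxra had 989, 852 and 988 CPM before the diet, 643 and 866 CPM at 1 week, 963 and 1058 CPM at 4 weeks, 617, 668 and 797 CPM at 10 weeks, 771, 1077 and 722 CPM at 20 weeks and 597, 859.6, 703 and 641 CPM at 30 weeks. It was not called at any time in the main edgeR fit, with adjusted p between 0.0552 at 30 weeks and 0.802. In 1 of 7 fits that each left out 1 library, Rxra was called lower at 30 weeks. Zeb2 had 659, 494 and 604 CPM before the diet, 528 and 578 CPM at 1 week, 486 and 545 CPM at 4 weeks, 669.9, 638 and 815 CPM at 10 weeks, 528, 528 and 498 CPM at 20 weeks and 510.1, 469, 472 and 454 CPM at 30 weeks. Its 10-week libraries were the highest and its 30-week libraries the lowest as groups, without a call against week 0 (0.27 ± 0.12 with adjusted p = 0.133 at 10 weeks, and -0.30 ± 0.11 with 0.0588 at 30 weeks). Zeb2 too was called lower at 30 weeks in 1 of 7 fits that each left out 1 library.

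The factors with the widest spread within a time were Id1, Id3 and Cebpb. Id3 had 148, 260.4 and 241 CPM before the diet, 221 and 129.99 CPM at 1 week, 139 and 101 CPM at 4 weeks, 98.3, 106 and 128 CPM at 10 weeks, 92.03, 57.9 and 226 CPM at 20 weeks and 125, 134, 128 and 147 CPM at 30 weeks, and Id1 had 38.2, 25.6 and 27.3 CPM before the diet, 49.9 and 10.50 CPM at 1 week, 20.3 and 17.2 CPM at 4 weeks, 13.7, 15.2 and 20.5 CPM at 10 weeks, 12.4, 14.5 and 48.2 CPM at 20 weeks and 13.4, 17.4, 21.1 and 14.8 CPM at 30 weeks. At 20 weeks replicate 3 was the highest of both by far. Neither gene was called at any time in the main edgeR fit. Without that library the 20-week log2 fold changes were -1.54 for Id3 (adjusted p = 0.000816) and -1.19 for Id1 (0.0479), against -0.79 ± 0.36 (0.0971) and -0.29 ± 0.48 (0.671) with it. Bmpr1a, the BMP receptor gene, had 46.9, 31.3 and 45.4 CPM at week 0, 29.03, 37.9 and 35.8 CPM at 10 weeks, 2.03, 17.6 and 5.33 CPM at 20 weeks and 2.91, 4.64, 3.005 and 2.71 CPM at 30 weeks. It was lower at 20 weeks (-2.28 ± 0.47, 0.00152) and 30 weeks (-3.63 ± 0.45, 2.21e-05). The part of Bmpr1a in the levels of Id1 and Id3 was not tested. Cebpb had 343, 178 and 130.2 CPM before the diet, 265 and 135 CPM at 1 week, 291 and 277 CPM at 4 weeks, 116, 143 and 161 CPM at 10 weeks, 241, 336 and 360.4 CPM at 20 weeks and 199.9, 251, 231 and 235 CPM at 30 weeks. It was not called at any time, and without week 0 replicate 1, which had the most Cebpb of that group, the 20-week log2 fold change was 1.02 (adjusted p = 0.00607).

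Counted by time, 1 of the 8 factors was called at 1 week (16.0% of all genes), 0 at 4 weeks (8.54%), 0 at 10 weeks (19.1%), 2 at 20 weeks (34.7%) and 3 at 30 weeks (30.5%). At 4 and 10 weeks 3 and 5 of the 8 had an unadjusted p under 0.05, as had 3478 and 4828 of all 14552 genes. DESeq2 called 2 and 1 of the 8. Over all genes it called 1095 higher and 651 lower at 4 weeks, and 1991 higher and 1393 lower at 10 weeks. At 30 weeks DESeq2 called 1 of the 8 higher and 4 lower, and over all genes 2655 higher and 2310 lower. A test for any difference among the 5 diet times, chosen after the values had been seen, called 5 of the 8, with 52.5% of all genes called. These were Spic (edgeR adjusted p = 2.26e-06), Maf (0.00171), Zeb2 (0.00615), Spi1 (0.0069) and Cebpb (0.0277), and not Rxra (0.086), Id1 (0.438) or Id3 (0.594). The Cebpb call was lost without 10-week replicate 1 (adjusted p = 0.0972) or 2 (0.0735) and without 20-week replicate 2 (0.0514) or 3 (0.0544). Of the markers of the resident gate, 9 of 10 Kupffer cell markers were lower at 20 weeks and 7 at 30 weeks. Timd4 had 775, 853 and 916 CPM at week 0, 141, 429 and 112 CPM at 20 weeks and 79.9, 288, 159 and 108 CPM at 30 weeks. The sinusoidal endothelial sum was 1231 to 2523 CPM at week 0 and 669 to 1039 CPM at 30 weeks. The part of these in the lower Spic and Maf was not tested. Partner genes changed most at the late times: of MAF and C/EBP relatives 6 of 11 were higher and 2 lower at 20 weeks and 4 higher and 2 lower at 30 weeks, with Cebpd the most strongly lower at -1.84 and -1.28. Of BMP and TGF-beta pathway genes 6 of 14 were higher and 1 lower at 20 weeks, and 3 higher and 3 lower at 30 weeks, with Tgfbr1 at 1.51 and 1.36. Of the RXR family and its dimer partners 5 of 11 were higher at each late time, with 1 and 2 lower. The receptor gene Ppara was the most strongly higher at every time and had 0.323 ± 0.0755 CPM at week 0, 8.76 ± 3.96 CPM at 1 week, 11.2 ± 9.79 CPM at 10 weeks and 2.33 ± 0.605 CPM at 30 weeks (means ± SD, n = 3, 2, 3 and 4). Hepatocytes also express Ppara, and the part of their RNA, whose marker sum is given above, was not tested. Of PU.1 relatives and partners 4 of 12 were higher and 3 lower at 20 weeks and 5 higher and 4 lower at 30 weeks. Notch pathway genes were higher in 5 and 4 of 9, with Jag1 at 2.11 and 2.67, and lower in 1 each.

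In Kupffer-niche recruited macrophages with floxed LXRa and LXRb genes, no factor was called between libraries labelled Cre positive and Cre negative, and 0.209% of all genes were called. At an unadjusted p under 0.05 were 3 of the 8 factors and 947 of all 11480 genes. The labels could not be checked on the targeted genes, since counts cover all exons and the floxed ones are not stated. Nr1h3 (LXRa) had 187, 451 and 298 CPM in Cre positive and 247, 282 and 307 CPM in Cre negative libraries, and Nr1h2 (LXRb) had 61.1, 82.5 and 64.5 CPM in Cre positive and 51.1, 33.3 and 36.6 CPM in Cre negative libraries. Spic had 29.5, 68.9 and 31.99 CPM in Cre positive and 129, 77.5 and 134 CPM in Cre negative libraries (log2 fold change -1.37 ± 0.34, edgeR adjusted p = 0.16). All 3 Cre positive libraries lay below all 3 Cre negative ones, and the highest Cre positive library was replicate 2. Maf had 848, 716 and 517 CPM in Cre positive and 1298, 1276 and 1250.4 CPM in Cre negative libraries (-0.88 ± 0.22, 0.163), again without overlap. Rxra, the partner of both LXRs, had 416, 967 and 654 CPM in Cre positive and 926, 1229 and 1167 CPM in Cre negative libraries (-0.70 ± 0.29, 0.547), which overlapped. Spic and Maf were called by DESeq2 (adjusted p = 0.0123 and 0.00813), and Spic also without Cre positive replicate 2 (-1.87, 0.0205).

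**Figure D4:**
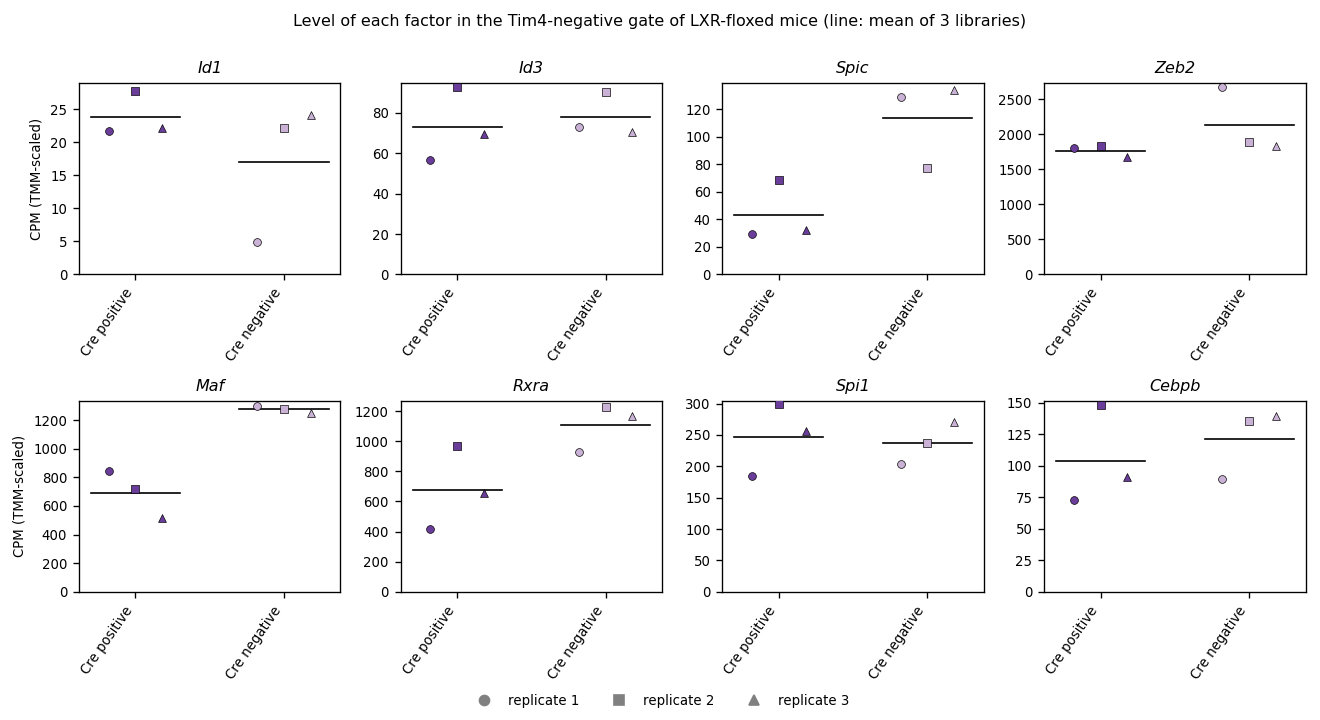
Normalised level in CPM of each of the 8 factors in Kupffer-niche recruited macrophages of mice with floxed LXRa and LXRb genes, with 1 point per library (n = 3) and a line at the mean, Cre positive left of Cre negative. The groups do not overlap for Spic, Maf and Zeb2, narrowly for Zeb2, and overlap for Id1, Id3, Rxra, Spi1 and Cebpb. The share of all genes without overlap was not counted.

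Of the remaining factors, Id1, Id3, Spi1 and Cebpb overlapped between the LXR groups and Zeb2 did not. How many of all genes did not overlap was not counted. Id3 had 56.6, 92.9 and 69.5 CPM in Cre positive and 72.9, 90.4 and 70.5 CPM in Cre negative libraries, and Id1 had 21.7, 27.8 and 22.1 CPM in Cre positive and 4.93, 22.1 and 24.2 CPM in Cre negative libraries. Zeb2 had 1797, 1824 and 1677 CPM in Cre positive and 2676, 1890.2 and 1834 CPM in Cre negative libraries. All 3 Cre positive libraries lay below all 3 Cre negative ones for Zeb2, by a narrow margin (log2 fold change -0.27 ± 0.22, edgeR adjusted p = 0.869). Spi1 had 185, 299 and 256 CPM in Cre positive and 203, 238 and 271 CPM in Cre negative libraries. Cebpb had 72.6, 148 and 91.4 CPM in Cre positive and 89.5, 136 and 139.95 CPM in Cre negative libraries. Their adjusted p lay at 0.869 or above. The gate differed between the groups: Timd4 had 17.2, 304 and 94.3 CPM in Cre positive and 3.52, 5.71 and 16.4 CPM in Cre negative libraries, all sorted as Tim4-negative, and the sum of Kupffer cell markers was 1473, 10820.3 and 5469.6 CPM in Cre positive and 3063, 3919.97 and 3317 CPM in Cre negative libraries. Cre positive replicate 2, with the most Kupffer cell marker RNA, was also the Cre positive library with the most RNA of 7 of the 8 factors, all but Maf, and with the most Hmox1 at 152, 803 and 286 CPM in the 3 Cre positive libraries, against 371, 314 and 363 CPM in the Cre negative ones. The part of this library's makeup in the spread was not tested. Of the partner lists only Runx3 (3.47 ± 0.54, adjusted p = 0.0374) and Runx2 (3.13 ± 0.40, 0.016) were called, both higher in Cre positive libraries. Bmpr1a had 12.3, 30.6 and 14.7 CPM in Cre positive and 1.76, 2.14 and 4.31 CPM in Cre negative libraries and was not called (2.80 ± 0.50, 0.0594).

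In whole liver after 4 weeks of CDAHFD no factor was called between DTR positive and DTR negative mice, 1 had an unadjusted p under 0.05, and edgeR and DESeq2 called 0 of 12682 genes (0%), with 477 and 489 at an unadjusted p under 0.05. That 1 was Cebpb, with a lowest, median and highest level of 136, 227 and 285 CPM in DTR positive livers and 215, 257 and 434 CPM in DTR negative livers (log2 fold change -0.42 ± 0.15, edgeR adjusted p = 0.9998). The ranges overlapped. The lowest, median and highest levels of Spic were 0.951, 3.200 and 4.96 CPM in DTR positive and 2.58, 3.24 and 7.02 CPM in DTR negative livers, and the groups overlapped. In the same manner Maf had 54.01, 68.9 and 89.7 CPM in DTR positive and 35.3, 67.4 and 76.8 CPM in DTR negative livers, and Zeb2 16.7, 44.6 and 62.2 CPM in DTR positive and 22.3, 38.7 and 52.5 CPM in DTR negative livers. Id1 had 12.2, 18.98 and 23.2 CPM in DTR positive and 13.1, 21.1 and 30.5 CPM in DTR negative livers, and Id3 had 48.9, 75.6 and 127 CPM in DTR positive and 50.1, 82.2 and 113 CPM in DTR negative livers. Ranges overlapped for all 8 genes. Rxra had 463, 531 and 788 CPM in DTR positive and 489, 606 and 721 CPM in DTR negative livers, and Spi1 had 9.89, 38.02 and 49.5 CPM in DTR positive and 11.3, 32.8 and 44.98 CPM in DTR negative livers. The SE of these log2 fold changes ran from 0.0986 to 0.227. On the TPM scale the order in whole liver differed from that of the population and time-course sorts, where Spi1 was highest, with Cebpb (182 TPM in DTR positive and 234 TPM in DTR negative livers) and Rxra (134 TPM in DTR positive and 141 TPM in DTR negative livers) above Spi1 (31.1 TPM in DTR positive and 27.5 TPM in DTR negative livers). Clec4f, whose promoter drives the Cre, ranged widely within both groups, with 3.37 to 140.3 CPM in DTR positive and 1.37 to 118 CPM in DTR negative livers, so the labels did not separate the livers by this gene.

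Across the 12 population libraries, Spic and Rxra were the most alike of the 8 (Pearson r of log2(CPM + 1) = 0.944), followed by Id3 and Maf (0.902), Rxra and Spi1 (0.853) and Maf and Rxra (0.850). Zeb2 and Id3 were the pair most opposed (-0.502). These correlations are descriptions over libraries that fall into 6 groups of 2 and share depth and sorting. Over the same libraries and 8739 genes with a mean level of at least 10 CPM, the 3 genes most like each factor were Nosip (0.940), Hdac10 (0.924) and Asb6 (0.923) for Id1, Nectin2 (0.969), Adck5 (0.968) and Gadd45g (0.964) for Id3, and Lyn (0.955), Fpr2 (0.937) and Braf (0.925) for Zeb2. For Spic they were Hmox1 (0.986), Sec24d (0.974) and Ppfibp2 (0.973), headed by the haem-degrading enzyme. For Maf they were Mrc1 (0.990), Sema6d (0.988) and Erc1 (0.988), headed by the mannose receptor gene of macrophages. For Rxra they were Pcolce2 (0.994), Kcnj16 (0.992) and Ccdc148 (0.991), and for Spi1 H2-L (0.983), Rab10os (0.977) and Rabac1 (0.969). Cebpb had the loosest matches, Ifitm3 (0.920), Tmem234 (0.917) and Tor2a (0.916).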

How the data were processed

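PolyA RNA of 57 mouse samples was sequenced, and the authors deposited raw counts and TPM for 40458 transcripts. HOMER's analyzeRepeats.pl made both on exons of RefSeq transcripts (mm10), per the file headers. STAR and DESeq2 are also named, per the submitters' processing notes, and their versions are not given in the sources used here. Nor is strand handling, so reads of overlapping antisense genes cannot be told apart. Macrophages were released by digestion with flavopiridol, a blocker of transcription, per the labels' protocols. Each symbol was read from 1 transcript, the one with the most counts (24941 genes). Of the 8 genes, 4 have further transcripts whose counts mostly coincide. Tests and CPM (TMM-scaled within a set) start from the deposited counts, and genes are compared with each other on the deposited TPM.

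Groups come from the sample labels. In R 4.3.3, edgeR 4.0.16 (filterByExpr, count minimum 10; quasi-likelihood F test) was fitted to all genes of a set, with Benjamini-Hochberg adjustment and calls at an adjusted p under 0.05. It tested 14407 (population), 14552 (time course), 11480 (LXR) and 12682 (whole liver) genes. The SE given with a log2 fold change was derived from the test, as the absolute log2 fold change divided by the square root of F. Of group differences, "rose", "fell", "higher" and "lower" are used for called genes. The scripts were tested on simulated data. Alternatives were RLE size factors, no filter, summed transcripts, 2 groups alone, the replicate number as a block, DESeq2 1.42.0 and leaving out each library. By the rule used (at least 3 pairs, each with r over 0.1) replicate numbers paired the samples at 10 weeks against week 0 (3 pairs, r of 0.138 to 0.374). Comparisons of 2 pairs could not meet it, and some had higher r. Chi-square per degree of freedom between replicates ran from 5.03 to 79.9 over 140 pairs, so no pair agreed within sampling noise. The 8 genes and the 7 partner lists were chosen with earlier results of these data known. Beyond the 8, the rule names the called gene of each list with the largest change in either direction, every called gene where few were called, and the 3 genes most like each factor. Other names (Nr1h3, Nr1h2, Hmox1, Slc48a1, Bmpr1a and Cebpd where the rule does not give them, and genes of the gates) were chosen after their values were seen.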

Additional observations from a re-analysis of the deposited data

Results flagged for a closer look

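In whole liver, Spic was highest in replicate 1 of the DTR negative livers, at 7.02 CPM, against a median of 3.24 CPM in that group, and stood far from its other values. This was 1 of 16 tests over genes and groups of 4 to 10 libraries, and chance gives about 1 in 20. No gene was called in whole liver, and the comparison was not refitted without that library.

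For 5 of the 8 factors the diet effect differed among 1, 4, 10, 20 and 30 weeks by edgeR's F test, added after the values were seen: Spic (adjusted p = 2.26e-06), Maf (0.00171), Zeb2 (0.00615), Spi1 (0.0069) and Cebpb (0.0277). The Cebpb call was lost with the replicate number as a block (0.0534) and without 10-week replicate 1 (0.0972) or 2 (0.0735), or 20-week replicate 2 (0.0514) or 3 (0.0544). Of all genes, 52.5% differed among the weeks in the same test, so the share among the factors is close to that of other genes.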

How the results depend on the processing

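Over 104 values of the 8 factors, 1080 alternative fits gave 1001 results with the same direction and side of the threshold, 40 that lost a call and 39 that gained one. No called value changed sign, and 63 fits changed the sign of a value that neither fit called, the largest of these 0.375 in size (log2). Changes of at most 1.5-fold in the number of factors or genes called are left out of the counts in this paragraph. For the factors these occurred in NASH against healthy Kupffer cells and in Ly6C-low against Kupffer-niche recruited macrophages. They also occurred in Ly6C-high recruited macrophages against blood, at 30 weeks and among the diet weeks. The number of factors called went to 2 with DESeq2 between Ly6C-low and Ly6C-high recruited macrophages, 2 with DESeq2 at 4 weeks, 1 with no filter, 1 with DESeq2 and 2 with the 2 groups alone at 10 weeks, 1 with the 2 groups alone at 20 weeks, 5 with DESeq2 and 6 with the 2 groups alone at 30 weeks, and 2 with no filter and 2 with DESeq2 in the LXR set. All genes called higher and lower in these fits, in the same order, were 1563 and 2131, 1095 and 651, 1514 and 1035, and 1991 and 1393. The rest had 835 and 393, 1886 and 1708, 2655 and 2310, 2603 and 2656, 197 and 76, and 161 and 71. Over all genes, Kupffer-niche recruited macrophages against NASH Kupffer cells had 77 calls, against 257 with no filter, 152 with the replicate block, 269 with DESeq2 and 48 with the 2 groups alone. With the 2 groups alone, 1 week had 1492 calls and 10 weeks 1228, against 2325 and 2786. The LXR set had 24 calls, against 273 with no filter, 12 with summed transcripts, 112 with the replicate block and 232 with DESeq2. The cause was not tested. With the 2 groups alone, Spic (adjusted p = 0.0601) and Zeb2 (0.0987) were lost between NASH and healthy Kupffer cells, Maf (0.103) at 20 weeks and Id1 (0.0722) between Ly6C-low and Kupffer-niche recruited macrophages.

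Leaving out 1 library gave these ranges of factors called, and of all genes called: 0 to 3 and 852 to 2031 for NASH against healthy Kupffer cells, 0 and 10 to 33 for Kupffer-niche recruited macrophages against NASH Kupffer cells, 4 to 6 and 7056 to 7612 for Kupffer-niche recruited macrophages against blood, 2 to 7 and 2851 to 3610 for Ly6C-low against Kupffer-niche recruited macrophages, 1 to 3 and 5450 to 5796 for Ly6C-high recruited macrophages against blood, and 1 and 1619 to 3048 for Ly6C-low against Ly6C-high recruited macrophages. In the time course they were 0 to 1 and 1068 to 1931 at 1 week, 0 to 1 and 538 to 1025 at 4 weeks, 0 to 2 and 1598 to 2808 at 10 weeks, 1 to 3 and 3841 to 4979 at 20 weeks, 2 to 4 and 3417 to 3764 at 30 weeks, and 4 to 6 and 6484 to 7856 for the difference among weeks. In the LXR set they were 0 to 1 and 0 to 81. A lone library left in a group is assumed to vary like the other groups, and whole liver was not refitted in this way.

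With the replicate number as a block, Maf was called between NASH and healthy Kupffer cells (adjusted p = 0.0316), Rxra between Ly6C-high recruited macrophages and blood (0.0461) and Id3 at 20 weeks (0.0473), Maf was lost at 20 weeks (0.0631), and Cebpb was lost in the test among the diet weeks (0.0534). The block changed no other call of the 8 factors. At 10 weeks, where the numbers paired the samples, 0 factors were called with and without it. Elsewhere the numbers did not meet the rule for pairing, which needs at least 3 pairs, each with r over 0.1. In the data the correlation of same-numbered libraries was 0.633 for Kupffer-niche recruited macrophages against NASH Kupffer cells, 0.605 for Ly6C-low against Kupffer-niche recruited macrophages and 0.533 for Ly6C-low against Ly6C-high recruited macrophages. Each of these is a single value, since with 2 libraries per group both pairs give the same r. A shared source of these numbers was not excluded. With 2 or 3 libraries in most groups, small differences could not be detected.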
